A study of Mus musculus with 5 samples.

Results

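Cytosolic ribosomal protein genes were followed in RNA-seq of the mouse hippocampus. They were taken by symbol, as *Rpl* or *Rps* followed by a digit, with *Rpsa*, *Rplp0*, *Rplp1* and *Rplp2*, and without the *Rps6k* kinases and symbols marked as pseudogenes. The rule found 86 genes of 23361 listed. Of these, 31 encode proteins of the small subunit, 43 proteins of the large subunit, 3 the large subunit stalk and 8 are paralogs, and *Rps19bp1* encodes a protein that binds a ribosomal protein without being one. *Fau* and *Gnb2l1* (also called *Rack1*) encode ribosomal proteins under symbols outside the rule and are given beside the members.

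The tissue came from mice aged 3 months. The 2 control mice carried the floxed allele (*Hdac1*f/f) without Cre, and the 3 *Hdac1* cKO mice carried *Hdac1*f/f with *Nestin-Cre*. *Nestin-Cre* deletes the gene in the neural lineage, so that neurons and astrocytes lose the histone deacetylase HDAC1 while microglia keep it, and no control carried Cre alone, so an effect of the transgene cannot be told apart from the deletion. *Hdac1* itself was at 8.95 and 13.1 FPKM in controls and at 1.95, 3.12 and 3.37 FPKM in cKO libraries (log2 difference -1.66, limma adjusted p = 0.219), with every cKO library below both controls. FPKM give sequenced fragments relative to transcript length and to the mapped fragments of the library.

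The cytosolic ribosome is built from a small subunit, which reads the mRNA, and a large subunit, which joins the amino acids. Its proteins are made in matched amounts, their genes are among the most abundantly transcribed in most tissues, and many of their mRNAs begin with a run of pyrimidines (the 5′ TOP tract) that couples their translation to mTOR signalling. Because these mRNAs are short and abundant, mammalian genomes hold many processed copies of them, and reads from a gene and from a near-identical copy cannot always be separated.

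Listed copies held most of the FPKM belonging to 4 members and their copies. In each case a gene symbol for an annotated copy on another chromosome held over 92% of the FPKM of the pair in every library. The stretches below were chosen because they show how little sequence separates these 4 members from the copy listed with the higher value, and *Rps16* from a copy with no listed value. They lie in the coding sequence, are read 5′ to 3′ from the NCBIM37 (mm9) assembly and its GENCODE vM1 transcripts, and have bases that differ between member and copy in capitals. For *Rps27* and *Rps16* the stretch is the same in both, so a single sequence is printed. The copy positions are chr5:3236577-3236636 (plus strand) for *Gm15772*, chr11:49492435-49492494 (minus) for *Gm12191*, chr6:71074705-71074764 (plus) for *Rpl34-ps1*, chr9:114891669-114891728 (minus) for *Gm9846* and chr5:129634143-129634202 (minus) for *Rps16-ps2*.
Rpl26, coding bases 147 to 206: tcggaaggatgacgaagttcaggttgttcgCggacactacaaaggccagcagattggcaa
Gm15772: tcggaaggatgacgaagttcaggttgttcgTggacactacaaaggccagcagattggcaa
Rpl30, coding bases 66 to 125: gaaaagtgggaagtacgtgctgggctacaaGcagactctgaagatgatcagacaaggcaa
Gm12191: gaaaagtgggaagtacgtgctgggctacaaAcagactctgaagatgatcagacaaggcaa
Rpl34, coding bases 102 to 161: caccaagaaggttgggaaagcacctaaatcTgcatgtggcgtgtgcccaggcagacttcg
Rpl34-ps1: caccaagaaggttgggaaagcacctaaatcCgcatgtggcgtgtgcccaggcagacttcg
Rps27 and Gm9846, coding bases 98 to 157: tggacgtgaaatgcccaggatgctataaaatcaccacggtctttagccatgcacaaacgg
Rps16 and Rps16-ps2, coding bases 191 to 250: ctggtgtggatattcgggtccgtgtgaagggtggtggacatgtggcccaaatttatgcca

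*Rps27*, a small subunit protein with a zinc finger (gene at chr3:90016593-90017573, 4 exons), matched *Gm9846* over 341 nt with 0 mismatches. *Rps27* was listed at 11.9 and 7.37 FPKM in controls and at 14.3, 7.77 and 8.80 FPKM in cKO, while *Gm9846* stood at 1904 and 1792 FPKM in controls and at 2028, 2245 and 1978 FPKM in cKO. The level of *Rps27* was the lowest of all tested members, and its copy would rank among the highest. *Rpl30* (chr15:34370260-34373395, 5 exons), a large subunit protein, differed from *Gm12191* at 1 of 348 nt and was at 29.1 and 18.2 FPKM in controls and 33.9, 33.5 and 20.4 FPKM in cKO, against 567.5 to 840.0 FPKM for the copy over the 5 libraries. *Rpl34* (chr3:130429749-130433316, 5 exons) differed from *Rpl34-ps1* at 3 of 404 nt and was at 19.5 and 11.8 FPKM in controls and 13.0, 14.5 and 12.9 FPKM in cKO, against 676.6 to 789.3 FPKM for the copy. *Rpl26* (chr11:68715085-68720491, 4 exons) differed from *Gm15772* at 4 of 518 nt. The copy was at 1246 and 1342 FPKM in controls and at 1335, 1579 and 1423 FPKM in cKO. For these 4 members the listed FPKM cannot be told apart from how reads were divided between gene and copy. The other 8 listed copies held at most 1.30% of the FPKM of their pair.

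**Figure D1:**
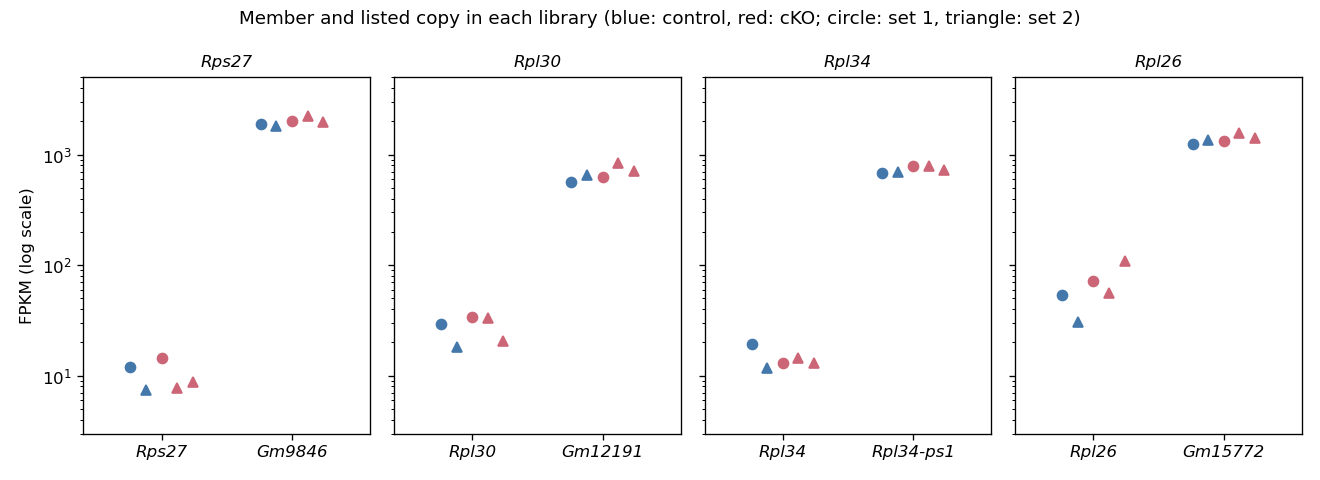
FPKM on a log axis of 4 members and of the listed copy of each, 1 point per library (blue control, red cKO, circles set 1 and triangles set 2 of the libraries). Each copy lies above its member in every library, from 92.8% to 99.7% of the pair's FPKM.

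Copies without a listed value were more numerous. The annotation held 439 transcripts of other genes matching a member at 95% identity or more over at least 200 nt, for 71 members, and only 12 of them were listed. In the genome 76 of 85 members searched had at least 1 such match outside their own gene, with a median of 5 and a maximum of 56 for *Rpl21*. *Rpl41* was not found in the annotation and was not searched. How reads with several matching positions were assigned was not given in the sources used here, so the level of every member with copies is uncertain.

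The other members stood near the top of the expressed genes. The median member had a mean of 593 FPKM over the 5 libraries, against 10.9 FPKM for the median of 12740 tested genes, and 73 members were at 100 FPKM or more. *Rps21* was the highest, at 1947 ± 402 FPKM in controls (SD, n = 2) and 2233 ± 267 FPKM in cKO (SD, n = 3). Next came *Rpl41*, whose product is the smallest ribosomal protein, at 1899 ± 246 and 2070 ± 96.7 FPKM, *Rplp1* of the stalk at 1854 ± 359 and 2017 ± 255 FPKM, *Rpl38* at 1562 ± 22.8 and 1829 ± 232 FPKM, and *Rpl9* at 1395 ± 21.0 and 1636 ± 148 FPKM. Among these 5, *Rps21*, *Rpl41* and *Rplp1* overlapped between the groups, and *Rpl38* and *Rpl9* were higher in all 3 cKO libraries than in both controls. The order of these neighbours did not exceed the spread of the libraries for the first 3. The 10 tested members below 100 FPKM were the 4 with a dominant copy, *Rps4y2*, *Rps27l* and *Rpl7l1* of the paralogs, *Rps19bp1*, and *Rpl22* and *Rps15a*.

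Most members were slightly higher in *Hdac1* cKO than in control hippocampus. Of 83 tested members, 76 had a positive log2 difference, where 53.7% of all tested genes did. The median difference was 0.13 against 0.01 for all genes, on the log2(FPKM + 1) scale. In 38 members (45.8%) every cKO library lay above both controls, a pattern found in 11% of all genes, and in 2 members, *Rps16* and *Rps4y2*, every cKO library lay below both controls, a pattern found in 9.41% of all genes. Few members passed a p threshold in the reported fit. An unadjusted p under 0.05 in limma was reached by 6 members, or 7.23% against 4.36% of all genes. The shares were 3.61% against 4.48% under quantile normalization, 3.61% against 4.40% at a common total and 3.61% against 4.59% without a variance trend. Without cKO replicate 1 it was reached by 14 members (16.9% against 7.61% of all genes). Without cKO replicate 2 it was 3 members (3.61% against 3.05%) and without cKO replicate 3 it was 4 (4.82% against 3.31%). In the reported fit 0 members had an adjusted p under 0.05, where 0.00785% of all genes did. The study's fold of 1.5 with an unadjusted p under 0.05, a rule met by 0.659% of all genes, was passed by 3 members, which were *Rps16* and *Rps4y2*, which were lower, and *Rpl26*, which was higher.

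**Figure D2:**
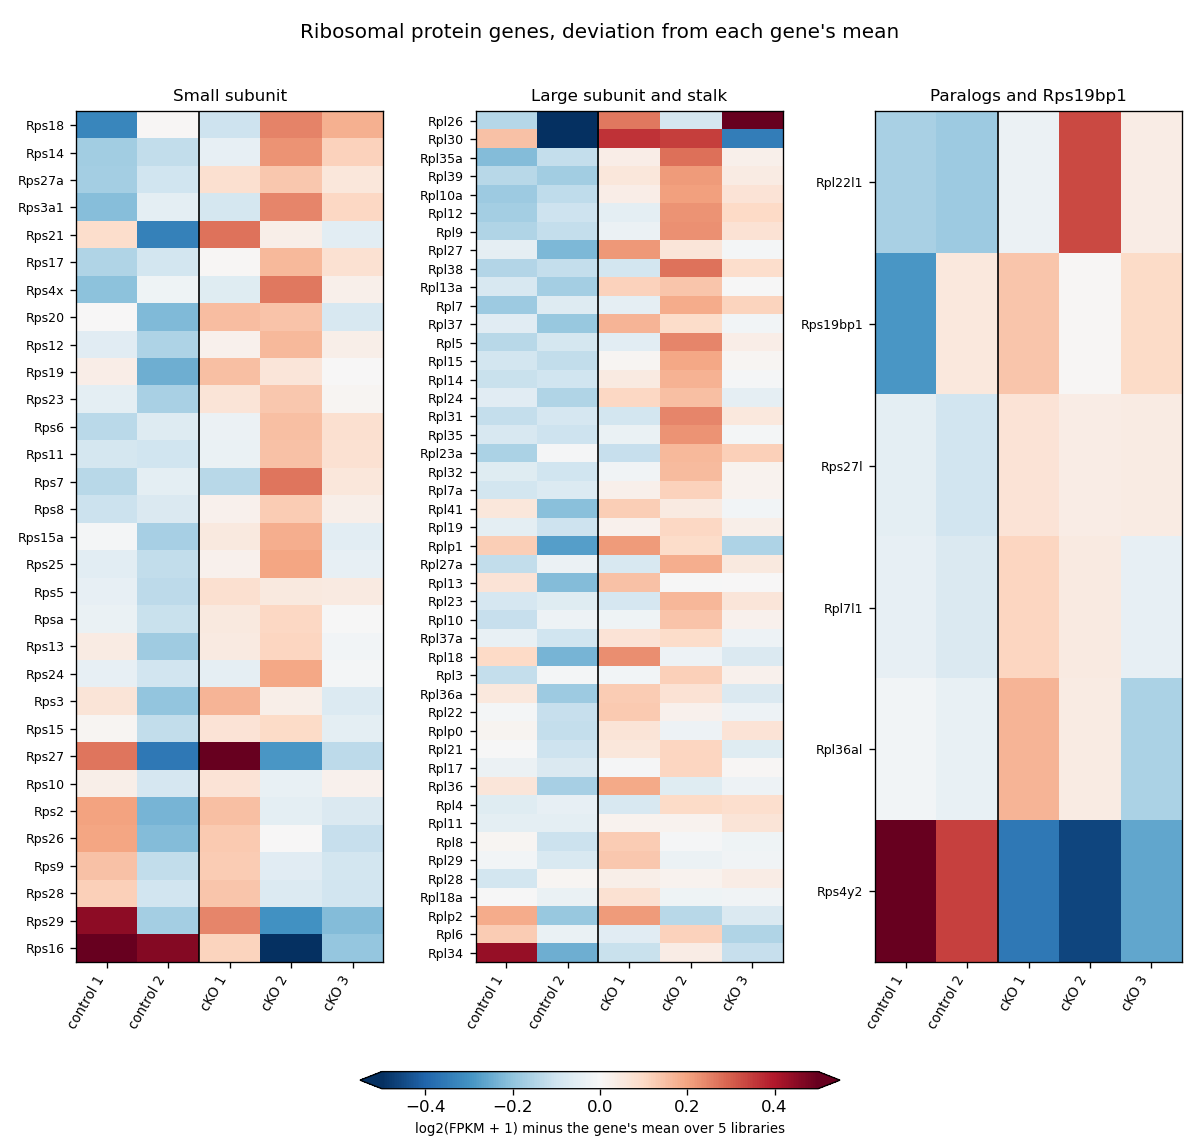
Heat map of the 83 tested members, as log2(FPKM + 1) minus the gene's own mean over 5 libraries (red higher, blue lower, colours end at ±0.5), ordered by the difference between groups. Control replicate 2 was the lowest library for 51 members and cKO replicate 2 the highest for 45, and *Rps16* and *Rps4y2* show the opposite colours from their neighbours.

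The mean log2(FPKM + 1) of the tested members was 8.76 and 8.66 in controls and 8.84, 8.86 and 8.78 in cKO. All 3 cKO libraries therefore lay above both controls, by 0.12 between the group means. The members together took 8.98% and 8.64% of the summed FPKM in controls and 8.73%, 9.85% and 9.21% in cKO, and in this measure the groups overlapped. The difference of 0.455 percentage points compares with an SD of 0.237 in controls and 0.564 in cKO. It was 0.160 points without cKO replicate 2, 0.287 without control replicate 2 and 0.722 without cKO replicate 1. With short RNA genes taken out of the total it was 0.752 points. The mean log2 difference was 0.06 without control replicate 2, and 62 members (74.7%) were then higher, against 58.6% of all genes. Under quantile normalization it was 0.04 with 63 members (75.9%) higher, against 51.4% of all genes. At a common total it was 0.05 with 70 members (84.3%) higher, against 37.7% of all genes. The median of members exceeded that of all genes by 0.11 in the reported fit, 0.11 at a common total, 0.04 under quantile normalization and 0.06 without control replicate 2.

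The 5 libraries split into groups, here called sets, that were not those of genotype. Low values shared common steps within a set and not between sets, and set 1 held control replicate 1 and cKO replicate 1, set 2 the remaining 3 libraries. What the sets are is not given in the labels. Within set 1 the members' mean differed by 0.07 between the cKO and the control library. There 71 of 83 members were higher, against 6628 of all 12740 tested genes. Within set 2 the members' mean differed by 0.16 and 78 members were higher, against 6340 of all 12740 tested genes. In both sets 69 members (83.1%) were higher in cKO, against 30.9% of all genes. With the set as a block, an alternative chosen after seeing the data, 25 members had an unadjusted p under 0.05, 23 of them higher in cKO, against 9.34% of all genes, and 0 members had an adjusted p under 0.05. Between the sets themselves 4 members differed at an adjusted p under 0.05, against 3.09% of all genes. They were *Rps29* (log2 difference set 2 minus set 1 -0.55, adjusted p = 0.0193), *Rps27* (-0.68, adjusted p = 0.0257), *Rplp2* (-0.34, adjusted p = 0.0467) and *Rpl18* (-0.30, adjusted p = 0.0497), all from limma and all lower in set 2.

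Sequence composition moved with both comparisons. Over 72 subunit genes without a dominant copy, the GC content of the coding sequence had a Pearson correlation of -0.53 (Spearman -0.55) with the difference between sets, and of -0.29 (Spearman -0.44) with the difference between genotypes. The same correlations over 11675 other coding genes were -0.47 and -0.32. These are across genes of the same 5 libraries and are given without a test. In the 36 members with the lower GC the median genotype difference was 0.16 and in the 36 with the higher GC it was 0.11. Coding length had a Pearson correlation of 0.02 (Spearman -0.05) with the genotype difference over the same 72 members, and -0.06 (Spearman -0.13) over the other coding genes. Abundant short genes outside the members were higher in cKO more often than abundant long ones, which was not tested. Among 374 other coding genes that averaged 100 FPKM or more and had a coding length under 900 nt, 75.9% were higher in cKO, with a median of 0.09, and 25.4% had every cKO library above both controls. Among 273 such genes of 900 nt or more, 54.2% were higher, with a median of 0.01. The part of length and composition in the members' difference was not tested.

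**Figure D3:**
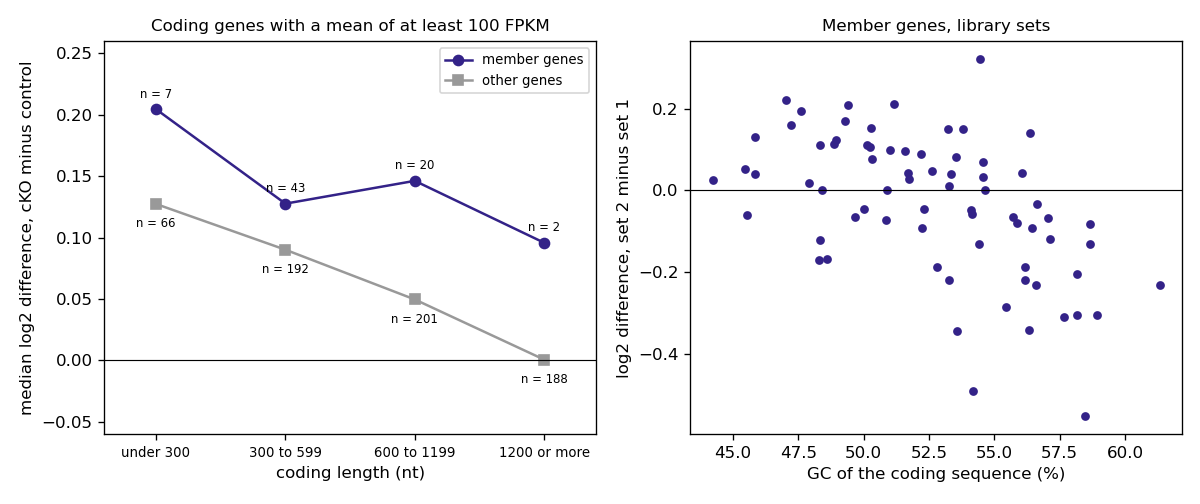
Left, median log2 difference between cKO and control by coding length, for members and for other coding genes averaging 100 FPKM or more (n genes beside each point). Right, difference between the library sets against coding GC for 72 members. At this level the members' median lies above that of other genes in each length class, although under 300 nt fewer members (71.4%) than other genes (84.8%) were higher, other genes fall from 0.13 in the shortest class to 0.00 in the longest, and members with high GC lie lower in set 2.

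Cell type markers were summed in each library. Of 6 astrocyte markers 5 were higher in cKO, without overlap of the groups, with a summed level of 1503 and 1526 FPKM in controls and 1772 to 1892 FPKM in cKO, and of 6 neuron markers 0 were higher, at 1656 and 1797 FPKM against 1566 to 1719 FPKM, which overlap. The markers of choroid plexus, a tissue that can be dissected with the hippocampus, summed to 6.08 and 163.6 FPKM in controls and to 24.6 to 599.9 FPKM in cKO, with the highest value in cKO replicate 2, the library in which most members were highest. Of 3 tested choroid plexus markers 1 was higher in cKO, and their mean log2 difference was -0.55 within set 1 and 1.91 within set 2. Of 6 oligodendrocyte markers 5 were also higher, with sums that overlapped (1558 to 1817 FPKM in control and 1524 to 1979 FPKM in cKO), as did those of microglia and endothelium, and no marker of any list was at 0 in every library. Their part in the members' difference was not tested. In bulk tissue, fewer cells of a type and less RNA per cell cannot be told apart.

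The small subunit gave 27 of 31 members with a positive difference and 4 with a negative one (median 0.15, range -0.92 to 0.27). In 11 of them every cKO library lay above both controls, against 11% of all genes. *Rps6*, the subunit's substrate of S6 kinase downstream of mTOR, was at 355.6 and 372.9 FPKM in controls and at 382.1, 432.9 and 412.4 FPKM in cKO. Its libraries did not overlap between groups, and the log2 difference was 0.17 ± 0.10 (SE of the fit, limma adjusted p = 0.955). *Rps19*, a protein needed for small subunit maturation whose human counterpart is mutated in Diamond-Blackfan anaemia, was at 656.9 and 541.6 FPKM in controls and at 711.4, 668.9 and 642.6 FPKM in cKO. Control replicate 1 lay among the cKO libraries (0.18 ± 0.12). *Rps18*, a protein of the subunit's head, was at 579.0 and 727.4 FPKM in controls and at 675.0, 860.6 and 820.4 FPKM in cKO, and differed by 0.22 within set 1 and by 0.21 within set 2. *Rps29*, a small zinc-binding protein, had a negative difference of -0.23 ± 0.22 with overlapping libraries, at 1306 and 851.8 FPKM in controls and at 1134, 776.3 and 823.5 FPKM in cKO. Its higher values were the set 1 library of each group, and without control replicate 1 the difference was 0.08.

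*Rps16*, which lies near the decoding site of the small subunit (gene at chr7:29135671-29137715, 5 exons), had the lowest difference of all members. It was at 329.7 and 289.5 FPKM in controls and at 227.2, 103.0 and 184.1 FPKM in cKO. Every cKO library was below both controls and cKO replicate 2, the library highest for most members, was the lowest for *Rps16*. The log2 difference was -0.92 ± 0.28 (limma adjusted p = 0.955), and it was -0.54 within set 1, -1.07 within set 2 and -0.59 without cKO replicate 2. Of its annotated copies *Rps16-ps2*, annotated at chr5:129633952-129634446, differed at 1 position over the 552 aligned nt of chr5:129633895-129634446, and at 0 positions in the coding part. No value for that copy is among the listed symbols, so the sum of gene and copy was not analysed here.

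The large subunit gave 41 of 43 members with a positive difference and 2 with a negative one (median 0.13, range -0.16 to 0.88), and in 24 of them every cKO library lay above both controls, against 11% of all genes. *Rpl35a*, whose human counterpart is mutated in Diamond-Blackfan anaemia, was at 984.0 and 1055 FPKM in controls and at 1171, 1388 and 1167 FPKM in cKO (0.28 ± 0.12, limma adjusted p = 0.955). *Rpl39*, which lines the exit tunnel, was at 658.4 and 642.7 FPKM in controls and at 754.0, 840.8 and 745.9 FPKM in cKO (0.26 ± 0.10, limma adjusted p = 0.955). *Rpl10a*, which forms the L1 stalk, was at 318.0 and 330.2 FPKM in controls and at 369.2, 416.0 and 378.6 FPKM in cKO (0.26 ± 0.10, limma adjusted p = 0.955). In each of the 3 genes all cKO libraries were above both controls, cKO replicate 2 was the highest, and the differences within both sets were positive, between 0.20 and 0.30. *Rpl5* and *Rpl11*, which with 5S rRNA can bind the p53 regulator MDM2, differed by 0.19 ± 0.11 and 0.08 ± 0.10, the latter turning to -0.03 under quantile normalization. *Rpl5* was at 273.3 and 283.5 FPKM in controls and 290.5, 356.9 and 308.4 FPKM in cKO, and *Rpl11* at 731.0 and 730.1 FPKM in controls and 766.1, 765.4 and 790.2 FPKM in cKO. Neither overlapped between groups. *Rpl23*, also a binder of MDM2, was at 255.7 and 259.7 FPKM in controls and 255.4, 304.4 and 282.5 FPKM in cKO, with cKO replicate 1 below both controls (0.12 ± 0.11).

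*Rpl26* had the highest difference of all members. It was at 53.4 and 30.8 FPKM in controls and at 71.2, 55.5 and 109.9 FPKM in cKO, and the lowest cKO library was close to the higher control. The log2 difference was 0.88 ± 0.30 (limma adjusted p = 0.955), with 0.41 within set 1 and 1.31 within set 2. It was 0.50 and no longer past the thresholds without control replicate 2. Summed with *Gm15772*, weighted by length, the pair was at 1283 and 1355 FPKM in controls and at 1389, 1614 and 1514 FPKM in cKO, a log2 difference of 0.19 that did not pass the thresholds. *Rpl30*, next after it among the subunit genes at 0.30 ± 0.25, overlapped between groups and was -0.03 without control replicate 2. *Rpl34* had a negative difference of -0.16 ± 0.19 on its own and a positive one of 0.14 when summed with *Rpl34-ps1*, and of 0.18 without control replicate 1. *Rpl6* was the other large subunit gene with a negative difference (-0.08 ± 0.11), at 382.9 and 342.8 FPKM in controls and at 337.0, 379.6 and 315.9 FPKM in cKO. Its libraries overlapped, and without control replicate 1 the difference was 0.0016.

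**Figure D4:**
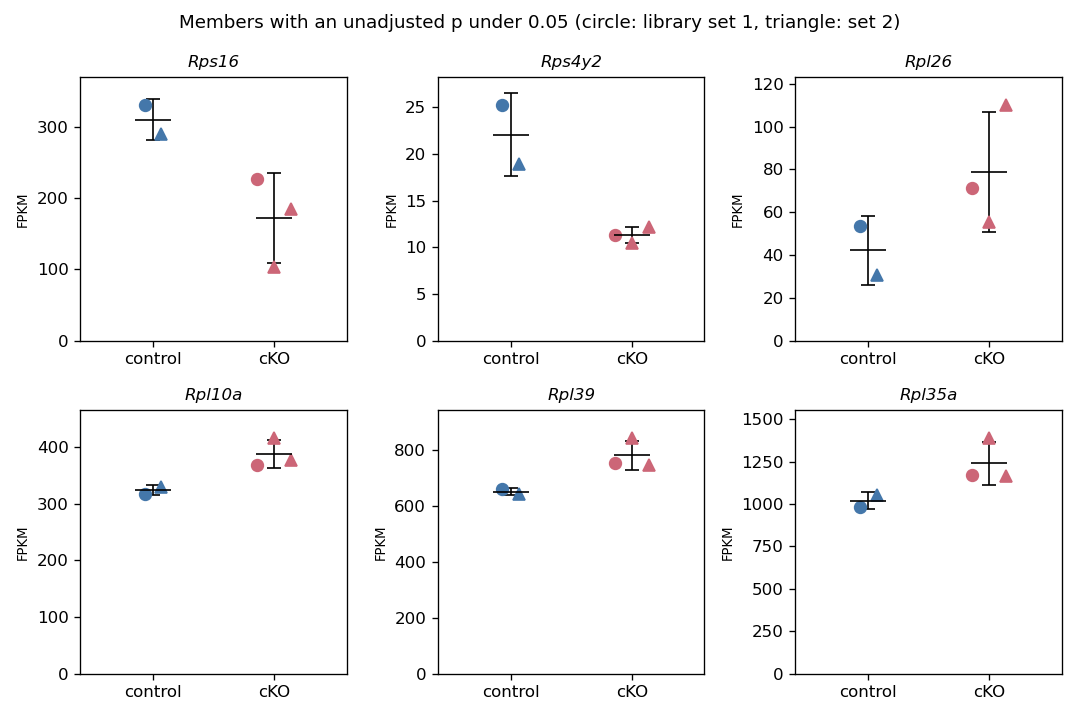
FPKM of the 6 members with an unadjusted p under 0.05 in limma, 1 point per library (circles set 1, triangles set 2), with the group mean and SD in black and axes from 0. *Rps16* and *Rps4y2* are lower in all cKO libraries and the other 4 genes higher, with *Rpl26* (55.5 to 109.9 FPKM) and *Rps16* (103.0 to 227.2 FPKM) widely scattered in cKO.

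The stalk, which recruits translation factors to the ribosome, had 3 members and all had a difference of 0 or slightly above. *Rplp0*, its base, was at 328.0 and 299.5 FPKM in controls and 340.0, 319.5 and 341.2 FPKM in cKO (0.09 ± 0.10). *Rplp1* was at 2108 and 1599 FPKM in controls and 2245, 2064 and 1742 FPKM in cKO (0.13 ± 0.16). *Rplp2* was at 791.2 and 610.2 FPKM in controls and 805.4, 632.1 and 661.9 FPKM in cKO (0.00 ± 0.15). In *Rplp1* and *Rplp2* the set 1 library of each group was the highest. *Rplp1* had a negative difference under quantile normalization, and *Rplp2* under every scaling tried.

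The paralogs separated into expressed and nearly silent genes. *Rpl10l*, an intronless gene known from testis, was listed at 0 in all 5 libraries, *Rpl39l* was listed at 0.22 FPKM in control replicate 2 and at 0 elsewhere, and *Rpl3l*, known from heart and skeletal muscle, was listed at 0.13 FPKM in control replicate 1, 0.17 FPKM in cKO replicate 3 and 0 elsewhere. These 3 were below the minimum of 1 FPKM and were the only members not tested. *Rpl22l1* was above its partner *Rpl22* in every library. *Rpl22l1* was at 331.5 and 326.7 FPKM in controls and 363.5, 466.6 and 380.9 FPKM in cKO, and *Rpl22* at 82.6 and 76.6 FPKM in controls and 91.0, 84.3 and 81.5 FPKM in cKO. *Rpl22l1* thus held 80.1% and 81.0% of the pair in controls and 80.0%, 84.7% and 82.4% in cKO. Its coding sequence is 70.2% identical to that of *Rpl22* over 369 aligned nt. Its log2 difference of 0.29 ± 0.12 (limma adjusted p = 0.955) was the third highest of all members, with no overlap between groups. *Rpl36al* differed by 0.04 ± 0.12 with overlapping libraries (-0.02 at a common total), *Rpl7l1*, at 20.6 to 23.5 FPKM over all libraries, by 0.09 ± 0.10, and *Rps27l*, known as a p53 target, by 0.12 ± 0.09. *Rps27l* was at 58.5 and 56.6 FPKM in controls and at 63.6, 62.3 and 62.4 FPKM in cKO, without overlap.

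*Rps4y2*, a single-exon paralog of *Rps4x* (chr6:148303178-148304120), had the lowest unadjusted p of the members. It was at 25.2 and 18.9 FPKM in controls and at 11.3, 10.5 and 12.2 FPKM in cKO, so that the 3 cKO libraries lay close together and below both controls. The log2 difference was -0.90 ± 0.14 (limma adjusted p = 0.422), with -1.09 within set 1 and -0.70 within set 2. *Rps4x*, the X-linked gene whose coding sequence is 80.1% identical over 789 aligned nt, was at 442.5 and 501.7 FPKM in controls and at 489.1, 611.4 and 518.4 FPKM in cKO. *Rps4y2* was 5.39% and 3.64% of the pair in controls and 2.25%, 1.68% and 2.29% in cKO.

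**Figure D5:**
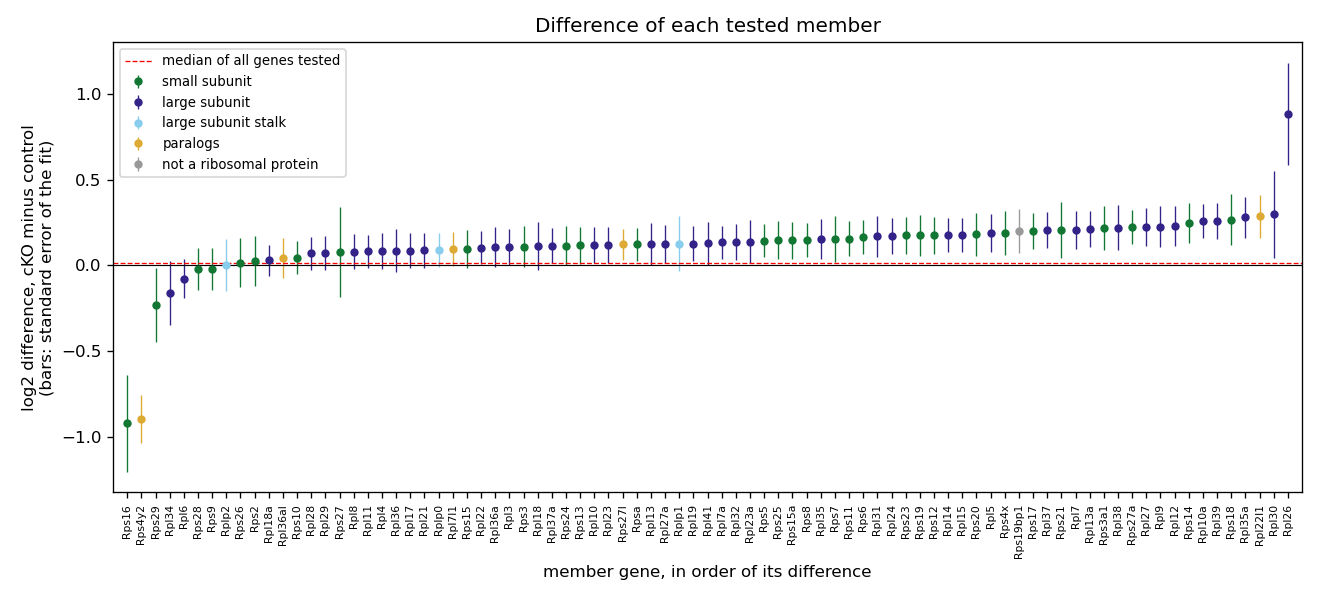
Log2 difference between cKO and control of each tested member with the standard error of the fit, coloured by role, with the median of all tested genes dashed. All but 7 of 83 members lie above 0, *Rps16* and *Rps4y2* stand apart at -0.92 and -0.90, and *Rpl26* stands apart at 0.88.

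Promoter sequence was read to show the pyrimidine tract that marks many of these genes. RefSeq start sites (GRCm38.p6) were matched for 65 of the 86 members. A run of at least 8 bases, each C or T, was searched on the sense strand where it touched the window from 5 bases before to 10 bases after a start. A gene counted when any of its starts had such a run. It was found in 26 of the 65 members (40%) and in 13.0% of 27025 genes in the table. The windows below run from 30 bases before to 25 bases from the start and have the run in capitals. *Rps6*, *Rpl38*, *Rpl35a* and *Rpl39* are shown as members with a run and *Rps16*, *Rpl26* and *Rpl5* as members without one that touched the searched window, which says only that these letters are not at that place. *Rpl35a* has 3 starts in the table and only that with a run is printed. The printed stretch of *Rpl5* holds such a run further before the start. Their positions in GRCm38.p6 are chr4:86857343-86857397 (minus strand), chr11:114668550-114668604 (plus), chr16:33056452-33056506 (plus), chrX:37085198-37085252 (minus), chr7:28350659-28350713 (plus), chr11:68901536-68901590 (plus) and chr5:107900498-107900552 (plus), in that order.
Rps6: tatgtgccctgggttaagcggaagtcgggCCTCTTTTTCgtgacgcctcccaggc
Rpl38: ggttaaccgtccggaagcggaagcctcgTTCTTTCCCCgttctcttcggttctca
Rpl35a: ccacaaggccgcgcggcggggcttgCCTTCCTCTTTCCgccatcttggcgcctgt
Rpl39: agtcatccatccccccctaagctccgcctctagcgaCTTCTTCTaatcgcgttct
Rps16: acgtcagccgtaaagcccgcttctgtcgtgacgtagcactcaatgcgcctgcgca
Rpl26: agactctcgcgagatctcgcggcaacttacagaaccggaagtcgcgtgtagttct
Rpl5: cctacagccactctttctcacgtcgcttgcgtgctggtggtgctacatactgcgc

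The median difference between genotypes was 0.13 in 26 tested members with a run, of which 24 had a positive difference, and 0.13 in 36 tested members without one, of which 33 had. The 21 tested members without a matched promoter had a median of 0.13.

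Members also host small nucleolar RNAs, which guide the modification of rRNA, in their introns. The annotation placed 58 of these inside 30 members, of which 28 were listed and 20 of those were listed at 0 in every library. The 30 host members had a median difference of 0.13 and the other 53 tested members 0.14. The 8 small nucleolar RNAs with values lie in *Rpl10*, *Rpl23*, *Rpl27a*, *Rpl32*, *Rplp2*, *Rps2* and *Rps3*.

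Related gene groups were read from the same fit. *Gnb2l1*, which encodes the scaffold RACK1 on the small subunit, differed by 0.18, and *Fau*, which encodes a small subunit protein fused to a ubiquitin-like one, by 0.08. *Gnb2l1* was higher in all 3 cKO libraries than in both controls. Of 76 mitochondrial ribosomal protein genes, whose products form the separate ribosome of mitochondria, 56 had a positive difference (73.7%, median 0.08), 17 had every cKO library above both controls and 4 every cKO library below, against 11% and 9.41% of all genes. Among them *Mrps12* had a positive difference (0.52, limma adjusted p = 0.955) and *Mrpl12* a negative one (-0.56, limma adjusted p = 0.955). Of 14 translation factors and other genes with known 5′ TOP mRNAs, 8 were higher (median 0.02) and 0 had an unadjusted p under 0.05. *Eef1a1*, the factor that brings tRNA to the ribosome, differed by 0.19 and *Eef2*, which moves the ribosome along the mRNA, by -0.07. Of 30 ribosome biogenesis factors 13 were higher (median -0.01), and *Rrs1*, an assembly factor of the large subunit, had a negative difference (-0.41, limma adjusted p = 0.955) where *Emg1*, a methyltransferase acting on small subunit rRNA, had a positive one (0.27, limma adjusted p = 0.955). A list of 15 genes around mTOR and TOP mRNAs held *Mtor*, *Larp1* and the S6 kinases, and also *Myc*, *Mycn* and *Mxi1*. Of the 15 genes 4 were higher (median -0.08) and 0 had an unadjusted p under 0.05 in limma. None of these genes had an adjusted p under 0.05. Whether the groups differ from the members was not tested.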

How the data were processed

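Total RNA of hippocampus was sequenced in 2 control and 3 *Hdac1* cKO samples, grouped by their titles. The authors aligned reads with Tophat2 and deposited FPKM from Cufflinks 2.0.0 with the UCSC mm9 annotation. Library kits were TruSeq Total RNA, and strand use and treatment of multiply matching reads were not given in the sources used here. FPKM are not counts, so no count test was run. Steps in the low values point to roughly 5140000 to 6770000 fragments per library, an approximate depth, and intervals were not derived.

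All genes averaging 1 FPKM or more were fitted together in limma 3.58.1 (R 4.3.3, lmFit and eBayes with trend). The model used log2(FPKM + 1) and a single genotype term, with two-sided p-values and Benjamini-Hochberg adjustment over 12740 genes. This scale understates the change of low genes. The study's thresholds were a fold of 1.5 and P of 0.05, and the test behind its P was not named. Where nothing says how samples were prepared apart, p-values measure the spread between these samples. Copies were matched with BLAST 2.17.0 at 95% identity over 200 nt. Named members were those past both thresholds, the 5 highest and 5 lowest differences, the 5 highest levels, paralogs, stalk genes, *Rps6*, *Rps19*, *Rpl5*, *Rpl11*, *Rpl23*, *Rpl26* and *Rpl41*. Any other gene is named with its values already known. The members and lists were chosen with earlier results of these data known. The fit was tested on simulated data with known changes, and its mean estimates lay close to them. Alternatives were other pseudocounts, filters, scalings and variance settings, blocks, leaving out each library, and sums with copies. A gene of the lists is not reported here.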

Additional observations from a re-analysis of the deposited data

Results flagged for a closer look

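Signals outside the comparison of the members were found in small nucleolar RNAs inside member genes. In 4 of the 8 that had values, every cKO library lay above both controls, where 11% of all tested genes show this, and that pattern is what marked them. *Snora21*, inside *Rpl23*, was at 1733 and 1204 FPKM in controls and at 3255, 2794 and 2063 FPKM in cKO (log2 difference 0.878, limma adjusted p = 0.955). *Snora70*, inside *Rpl10*, was at 1080 and 1067 FPKM in controls and at 2507, 1450 and 1583 FPKM in cKO (0.738). *Snora52*, inside *Rplp2*, was at 499.1 and 527.4 FPKM in controls and at 713.2, 1078 and 741.7 FPKM in cKO (0.692). *Snord15b*, inside *Rps3*, was at 3844 and 3646 FPKM in controls and at 5326, 3855 and 4223 FPKM in cKO (0.241). Their host genes differed by 0.12, 0.12, 0.00 and 0.11. Short RNA genes together held 23.7% and 21.6% of the FPKM in controls and 28.1%, 21.5% and 21.7% in cKO.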

How the results depend on the processing

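All 16 alternatives left 0 members at an adjusted p under 0.05 in limma, where 6 had an unadjusted p under 0.05 in the reported fit. Members past fold 1.5 and p 0.05 numbered 2 to 4 when 1 library was left out (92 to 234 of all genes) and 2 when copies were summed (82), against 3 (84). The mean log2 difference was 0.0352 under quantile normalization and 0.0492 at a common total, against 0.12, and 0.06 to 0.17 when 1 library was left out. Members with a positive difference numbered 62 to 81 (74.7% to 97.6%) in those last fits, against 46.3% to 58.6% of all genes. *Rps16* and *Rps4y2* passed the thresholds in all 16 alternatives, with ranges of -1.16 to -0.59 and -1.09 to -0.70, and adjusted p of 0.243 to 0.9998 and 0.0508 to 0.9996. *Rpl26* passed in 14, and not without control replicate 2 (0.50) or summed with its copy (0.19). The control and cKO libraries share replicate numbers 1 and 2. Deviations from the group means correlated at 0.40 and 0.27 in the same-numbered pairs, which also lie within the sets. Control replicate 2 and cKO replicate 3, also within a set, correlated at 0.15. With 2 controls, the deviations of one mirror those of the other, so these correlations are not independent. With the replicate block 3 members passed fold 1.5 and p 0.05, 0 an adjusted p and 25 an unadjusted p (30.1%, against 11.2% of all genes, of which 133 passed fold and p and 14 an adjusted p), 78 were higher, the mean log2 difference was 0.14 and the share difference 0.482 points.

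Among the 25 members followed one by one, these changed sign. Under quantile normalization *Rpl11* was -0.0306, *Rpl41* -0.0183, *Rplp1* -0.0247 and *Rplp2* -0.0821. *Rplp2* was -0.0135 with size factors, -0.0647 at a common total and -0.0434 at a common total without short RNA genes, where *Rpl36al* was -0.0234 and -0.0021 in the last pair of settings. Summed with its copy *Rpl34* was 0.142. When 1 library was left out, the range was -0.026 to 0.622 for *Rpl30*, -0.499 to 0.18 for *Rpl34*, -0.0333 to 0.131 for *Rpl36al*, -0.00341 to 0.261 for *Rpl41*, -0.158 to 0.00163 for *Rpl6*, -0.0715 to 0.326 for *Rplp1*, -0.185 to 0.189 for *Rplp2*, -0.00516 to 0.419 for *Rps21* and -0.539 to 0.0768 for *Rps29*. *Rpl30* passed the thresholds without control replicate 1. The causes were not tested. With 2 and 3 libraries, differences of the size seen in most members were not resolved one by one.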
